A study of Mus musculus with 4 samples.

Results

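The 34 genes described here encode proteins that drive and carry out mitosis: the cyclin-dependent kinase Cdk1 with its cyclins, the mitotic kinases, the spindle checkpoint, the kinetochore, the kinesin motors and other proteins of the spindle, chromosome structure and cytokinesis. They were listed by name for their function, with no threshold on a measured value, but with earlier results of these data known. Each gene's value was the sum over its transcripts, 157 transcripts in all. The 34 genes are among 45803 gene symbols measured, and all 34 reached the level needed for testing (1 FPKM or more in 2 or more of the 4 libraries, where FPKM is the number of fragments scaled for transcript length and library depth), as did 13817 symbols overall. RNA was sequenced from epidermal keratinocytes, the cells that build the outer layer of skin, of newborn mice at postnatal day 0. In the conditional knockout (cKO, K14Cre,Mettl14F/F, 2 libraries) both alleles of Mettl14 were floxed, and in the control (K14Cre,Mettl14F/+, 2 libraries) 1 allele was floxed. Both groups carried Cre recombinase under the keratin 14 promoter, which is active in basal keratinocytes, so the control was not a wild type. The libraries of each group are numbered 1 and 2, and because the labels name no separate animals, a p-value here measures the spread between libraries, which may be technical.

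In the epidermis, cells divide mainly in the basal layer and leave the cell cycle as they move outward and differentiate. Cdk1 bound to cyclins A and B starts mitosis, the Aurora and Polo-like kinases and the kinesins build a bipolar spindle, and the checkpoint holds the anaphase-promoting complex (APC/C) back until every kinetochore is attached. Most of these genes are transcribed in G2 and mitosis through promoters that carry CCAAT boxes, bound by NF-Y, and the cell cycle homology region (CHR), bound by MuvB complexes. Mettl14 is a subunit of the enzyme complex that places N6-methyladenosine on RNA.

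Since G2 and mitosis genes are known for these promoter elements, the letters were looked up in promoter windows from 250 bases before to 50 bases after the start, taken from RefSeq (GRCm38.p6). Windows were found for 30 of the 34 genes. Both strands were searched, for the box CCAAT and for the CHR letters TTTGAA. A match on the other strand reads ATTGG for the box and reads TTCAAA for the CHR. A further CHR form, TTCGAA, reads alike on both strands, and overlapping matches were counted separately. Capitals in the sequences mark these matches. Cdk1, Ccnb2 and Birc5 are shown because their levels in the libraries numbered 2 were higher in cKO, and Ndc80, Top2a and Mki67 because theirs were lower in cKO at both numbers.
Cdk1, chr10:69352863-69353162, minus strand: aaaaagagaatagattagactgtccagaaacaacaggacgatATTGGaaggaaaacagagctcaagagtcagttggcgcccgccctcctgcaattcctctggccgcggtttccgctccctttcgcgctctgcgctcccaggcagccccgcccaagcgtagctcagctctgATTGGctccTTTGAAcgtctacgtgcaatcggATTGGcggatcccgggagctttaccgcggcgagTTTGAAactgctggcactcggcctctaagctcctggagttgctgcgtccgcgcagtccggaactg
Ccnb2, chr9:70421505-70421804, minus strand: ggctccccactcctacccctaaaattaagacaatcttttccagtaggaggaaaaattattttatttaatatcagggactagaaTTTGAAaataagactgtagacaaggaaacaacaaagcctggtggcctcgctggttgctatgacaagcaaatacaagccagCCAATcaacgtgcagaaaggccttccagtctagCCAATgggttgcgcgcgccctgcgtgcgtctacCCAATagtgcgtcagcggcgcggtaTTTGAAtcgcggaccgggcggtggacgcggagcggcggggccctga
Birc5, chr11:117848987-117849286, plus strand: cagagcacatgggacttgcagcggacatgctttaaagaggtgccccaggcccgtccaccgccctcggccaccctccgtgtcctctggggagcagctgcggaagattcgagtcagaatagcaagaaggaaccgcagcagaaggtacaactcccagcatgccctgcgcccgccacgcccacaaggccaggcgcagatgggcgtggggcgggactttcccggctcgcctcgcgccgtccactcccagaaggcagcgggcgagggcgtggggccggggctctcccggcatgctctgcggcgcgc
Ndc80, chr17:71526808-71527107, minus strand: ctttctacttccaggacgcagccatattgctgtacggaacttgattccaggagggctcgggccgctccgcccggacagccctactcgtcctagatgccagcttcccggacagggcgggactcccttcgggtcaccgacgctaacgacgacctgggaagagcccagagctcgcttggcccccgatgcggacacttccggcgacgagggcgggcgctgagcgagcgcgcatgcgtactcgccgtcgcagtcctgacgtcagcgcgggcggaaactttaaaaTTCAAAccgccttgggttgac
Top2a, chr11:99024140-99024439, minus strand: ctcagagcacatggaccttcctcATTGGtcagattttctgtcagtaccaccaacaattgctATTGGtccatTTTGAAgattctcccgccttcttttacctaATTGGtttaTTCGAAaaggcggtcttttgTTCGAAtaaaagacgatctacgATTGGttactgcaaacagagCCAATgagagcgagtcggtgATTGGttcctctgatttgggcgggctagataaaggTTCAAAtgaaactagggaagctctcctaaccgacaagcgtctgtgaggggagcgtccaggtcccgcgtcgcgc
Mki67, chr7:135716330-135716629, minus strand: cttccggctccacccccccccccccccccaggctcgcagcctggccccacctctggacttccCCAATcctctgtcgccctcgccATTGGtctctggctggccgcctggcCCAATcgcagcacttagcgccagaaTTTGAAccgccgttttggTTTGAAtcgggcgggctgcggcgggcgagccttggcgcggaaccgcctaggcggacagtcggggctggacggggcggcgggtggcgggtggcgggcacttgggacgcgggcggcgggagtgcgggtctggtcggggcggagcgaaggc
CCAAT occurred in 23 of the 30 windows (76.7%), against 37.4% of all 32851 windows of that length, and at least 2 copies occurred in 16 (53.3%, against 11.7%). A CHR match occurred in 26 windows (86.7%, against 19.2%), and both motifs in 21 (70%, against 7.52%). No CHR letters lay in the windows of Ccnb1, Birc5, Cenpe and Nusap1. Genes higher in cKO 2 than in control 2 held CCAAT in 9 of 11 windows and CHR in 9 of 11. Those lower in cKO 2 held them in 14 of 19 and 17 of 19. A match is a description of the letters only.

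The targeted gene was measured first. Mettl14 stood at 7.00 FPKM in control 1, 6.40 in control 2, 5.89 in cKO 1 and 3.79 in cKO 2, a log2 difference of -0.42 ± 0.26 (SE; limma adjusted p = 0.959). Both cKO libraries were below both control libraries, and RNA of the gene was present in all 4; the labels do not give the deleted part. The implied depth was 16885268 to 25711582 reads or fragments per library. Defining keratinocyte genes were present: the basal keratin Krt14 measured 2176, 2550, 1435 and 2195 FPKM in control 1, control 2, cKO 1 and cKO 2, and the suprabasal keratin Krt10 15342, 5382, 12142 and 6217. Krt1, another suprabasal keratin, was listed at 0 in every library. Krt10 differed more between the numbers than between the genotypes, while Krtdap, a further suprabasal gene, measured 3562, 3584, 4007 and 3616 FPKM in the same order. Each comparison below is given within number 1 and within number 2.

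Mitosis genes were lower in cKO 1 than in control 1 without exception, while in the libraries numbered 2 they divided in shares near those of all genes tested. Within number 1, 34 of 34 were lower in cKO, where 53.2% of all genes tested were lower. With only the most abundant transcript of each gene, 33 were lower, all but Kif20a. Within number 2, 20 were lower, where 52.4% of all genes tested were, and 14 were higher, where 47.4% were. Lower within both numbers were 20 (37.6% of all genes tested), and the other 14 were lower within number 1 and higher within number 2 (15.5%). The median log2 difference over the 34 genes, cKO minus control on log2(FPKM + 1), was -0.63 within number 1 and -0.12 within number 2, beside medians of -0.03 and -0.02 over all genes tested. These were bulk samples, in which fewer dividing cells and less RNA per cell cannot be told apart. Their summed level was 680 FPKM in control 1, 721 in control 2, 425 in cKO 1 and 770 in cKO 2. The low sum was that of cKO 1, and the other 3 libraries lay near each other.

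**Figure D1:**
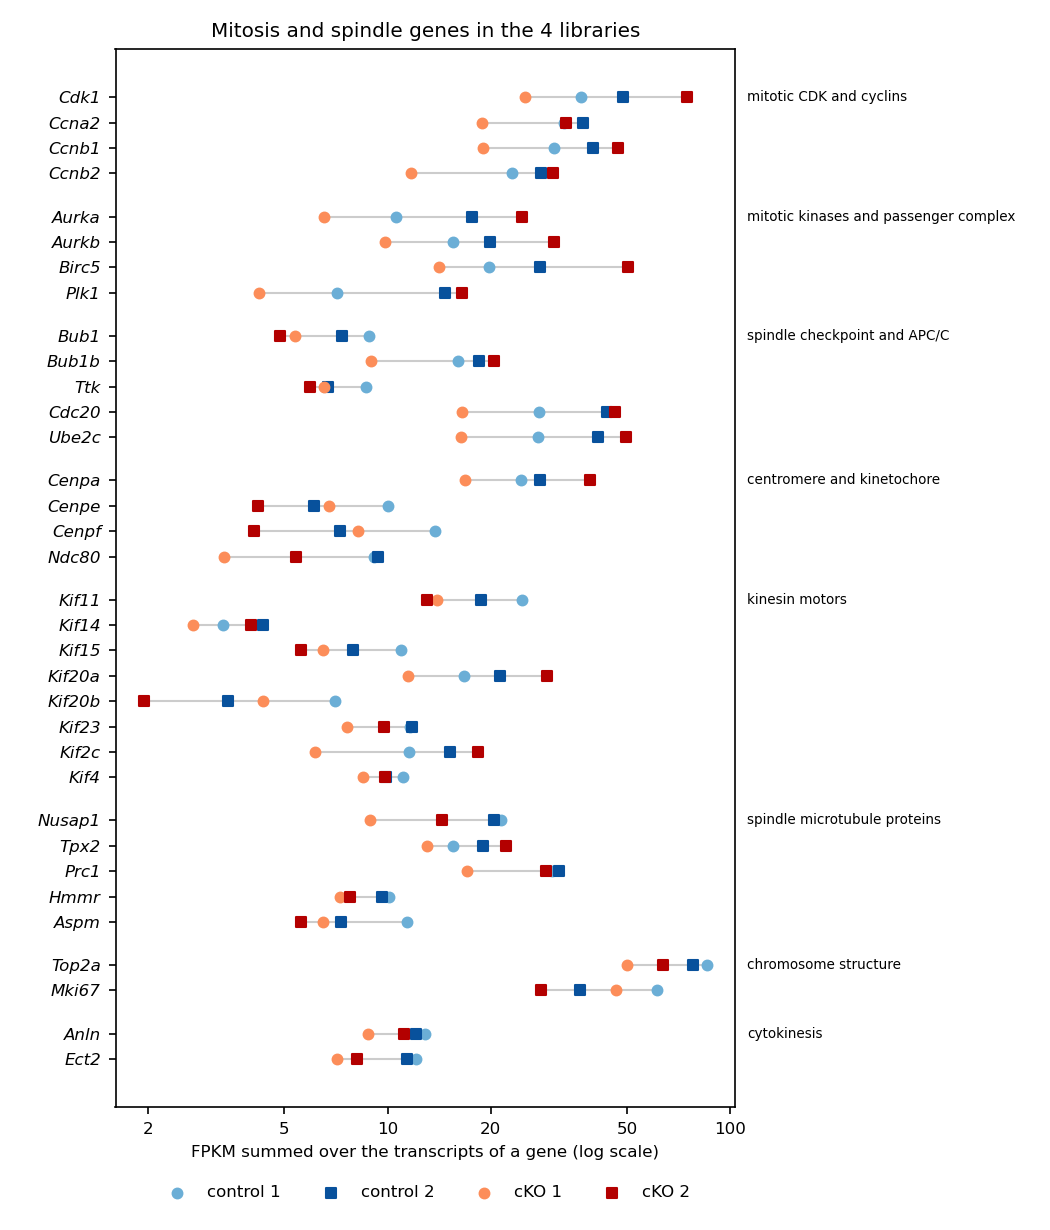
FPKM of the 34 mitosis and spindle genes (log scale), grouped by role, with 1 point per library: circles for libraries numbered 1, squares for those numbered 2, blue for control and orange or red for cKO. The cKO 1 point lies left of the control 1 point for all 34 genes, and the cKO 2 point lies right of the control 2 point for 14, among them Cdk1, Aurkb and Birc5.

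Size followed the same split. Within number 1, 21 genes were at least 1.5-fold lower in cKO on the log2(FPKM + 1) scale (5.26% of all genes tested) and 0 were that much higher (4.78%). Within number 2, 3 genes, Cenpf, Kif20b and Ndc80, were at least 1.5-fold lower (6.48% of all genes tested), and 3, Aurkb, Birc5 and Cdk1, were at least 1.5-fold higher (6.3%). These counts at 1.5-fold within number 2 were near the shares of all genes tested. On the log2(FPKM + 1) scale, Cenpf, Kif20b and Ndc80 were also the only ones at least 1.5-fold lower within both numbers (1.32% of all genes tested). By the ratio of FPKM itself, Bub1 passed too, 1.64-fold lower within number 1 and 1.52-fold lower within number 2. At 2-fold, Ndc80 and Nusap1 were lower within number 1 (0.608% of all genes tested) and 0 within number 2 (0.717%). The spread of the log2 differences over the 34 genes was 0.22 (SD) within number 1 and 0.41 within number 2.

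Over both numbers, the difference was below 0 for 32 genes (54.5% of all genes tested), all but Birc5 and Cdk1. Without cKO 1 it was below 0 for 19, and without cKO 2 for 34. Of the 34 genes, 15 changed direction when 1 library was left out, among them Cdk1, Aurka, Aurkb, Birc5 and Plk1. For 14 genes both cKO libraries lay below both control libraries (16.6% of all genes tested): Anln, Aspm, Bub1, Ect2, Hmmr, Kif11, Kif15, Kif23, Kif4, Ndc80, Nusap1, Prc1, Top2a and Ttk. For 0 genes did both lie above (16.2%). No difference passed limma's test over all 13817 genes (0%), with adjusted p between 0.959 and 1.00 over the 34 genes; limma-voom on recovered reads also called 0. At an unadjusted p under 0.05, 5 were lower, Bub1, Ect2, Kif11, Ndc80 and Nusap1 (1.68% of all genes tested), and 0 were higher (3.29%). The smallest unadjusted p among them was 0.0113, for Ndc80. The test had 2 residual degrees of freedom, and an exact permutation test of 2 libraries against 2 cannot go below a two-sided p of 0.333.

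**Figure D2:**
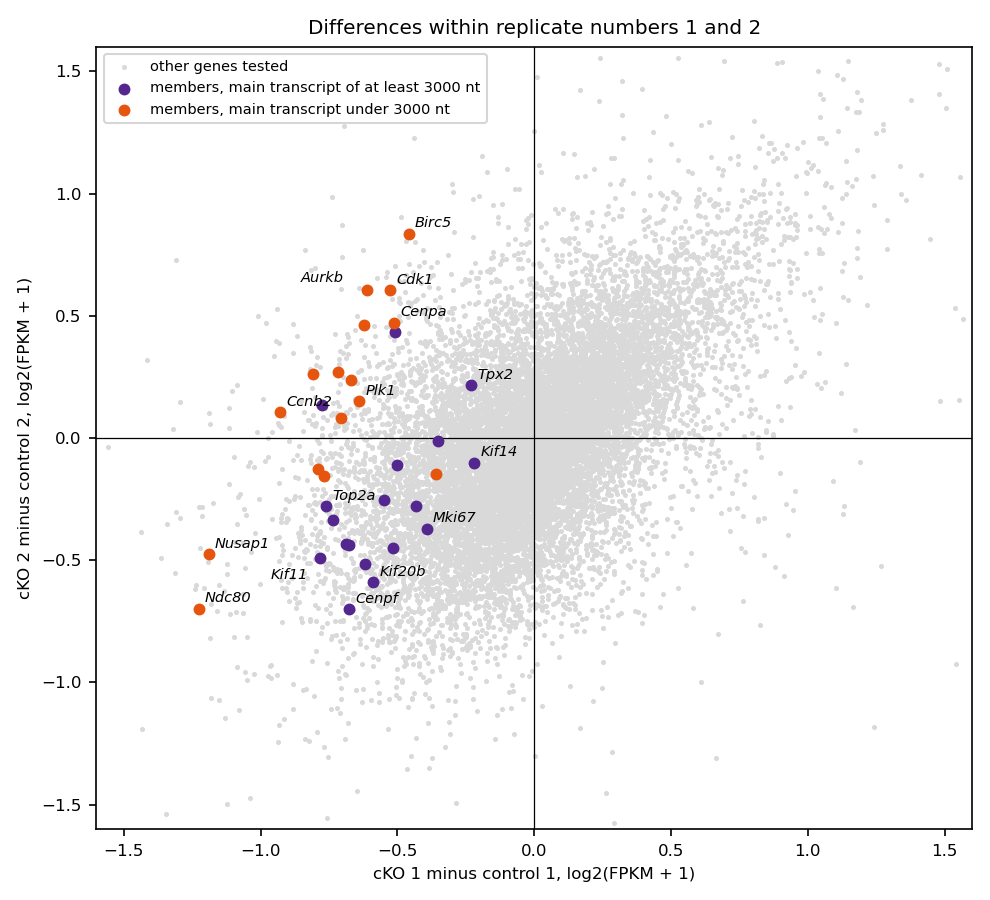
Log2 difference, cKO minus control on log2(FPKM + 1), within number 1 (x axis) and within number 2 (y axis), for the 34 genes (coloured by whether the main transcript is under 3000 nt) and other genes tested (grey; 53 of 13783 lie outside the axes). All 34 lie left of 0, between -1.23 (Ndc80) and -0.22 (Kif14), while on the y axis they run from -0.70 (Cenpf) to 0.84 (Birc5).

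The counting error of the reads was smaller than these differences for most genes. In cKO 1 the genes had between 124 reads (Ndc80; recovered from the FPKM and transcript lengths) and 7900 (Mki67), with a median of 476, and in cKO 2 between 278 (Kif20b) and 7316 (Top2a), with a median of 1262. The 95% exact (Clopper-Pearson) interval of the cKO to control ratio of depth-scaled reads lay below 1 for 34 genes within number 1 (28.7% of all genes tested) and above 1 for 0 (26.6%). Within number 2 it lay below 1 for 18 (35.3% of all genes tested) and above 1 for 12 (31.7%), and it held 1 for Ccnb2, Cdc20, Kif14 and Kif4. These intervals cover counting error in single libraries and not the spread between libraries.

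Cdk1 and the mitotic cyclins were lower in cKO 1 than in control 1 and stood at or above control in cKO 2, apart from cyclin A2. Cdk1, the kinase that starts mitosis, measured 36.8 FPKM in control 1, 48.8 in control 2, 25.3 in cKO 1 and 74.7 in cKO 2. Ccnb1, cyclin B1, its main partner, measured 30.7 and 39.9 in control libraries 1 and 2, against 19.0 and 47.2 in cKO 1 and 2, and Ccnb2, cyclin B2, 23.1 and 28.1 against 11.7 and 30.4. Ccna2, cyclin A2, which acts in S phase and G2, measured 32.9 and 37.3 against 18.9 and 33.3. For Cdk1, Ccnb1 and Ccnb2, cKO 1 was the lowest and cKO 2 the highest of the 4 libraries, and the groups overlapped. The log2 differences within numbers 1 and 2 were -0.53 and 0.61 for Cdk1, -0.67 and 0.24 for Ccnb1, -0.93 and 0.11 for Ccnb2 and -0.77 and -0.16 for Ccna2. Over both numbers they were 0.04 ± 0.50 (SE), -0.22 ± 0.44, -0.41 ± 0.44 and -0.46 ± 0.31.

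The mitotic kinases and survivin had the largest turn between the numbers, with medians of -0.62 within number 1 and 0.53 within number 2. Birc5, survivin, which places Aurora B at the centromere, measured 19.8 and 27.8 FPKM in control libraries 1 and 2, against 14.1 and 50.5 in cKO 1 and 2. Aurkb, Aurora B, the kinase of the chromosomal passenger complex, measured 15.5 and 19.9 against 9.82 and 30.7. Aurka, Aurora A, the kinase of the spindle poles, measured 10.6 and 17.7 against 6.54 and 24.7, and Plk1, the Polo-like kinase, 7.13 and 14.7 against 4.22 and 16.5. In each of these 4 genes the order was cKO 1, control 1, control 2 and cKO 2, from lowest to highest. Birc5 in cKO 2 was 1.81 times its level in control 2, the highest ratio among the 34 genes. Over both numbers the log2 differences were 0.19 ± 0.57 for Birc5, -0.002 ± 0.51 for Aurkb, -0.08 ± 0.59 for Aurka and -0.24 ± 0.62 for Plk1, and the SE of Plk1 was the highest of the set.

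In the checkpoint and APC/C group, the checkpoint kinases Bub1 and Ttk were lower within both numbers, and the other 3 genes were lower within number 1 and higher within number 2. Bub1, which recruits checkpoint proteins to kinetochores, measured 8.80 and 7.35 FPKM in control libraries 1 and 2, against 5.38 and 4.84 in cKO 1 and 2, a log2 difference of -0.57 ± 0.22 with no overlap of the groups. Ttk, or Mps1, the kinase at the top of the checkpoint, measured 8.64 and 6.69 against 6.51 and 5.95 (-0.25 ± 0.23), also without overlap. Bub1b, or BubR1, which inhibits the APC/C, measured 16.0 and 18.5 against 8.95 and 20.4. The APC/C side was alike: Cdc20, its activator, measured 27.6 and 43.7 against 16.6 and 46.3, and Ube2c, its ubiquitin-conjugating enzyme, 27.5 and 41.1 against 16.3 and 49.8. In Bub1b, Cdc20 and Ube2c the libraries numbered 2 were the upper 2 and cKO 2 exceeded control 2, by 0.14, 0.08 and 0.27 on the log2 scale.

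In the centromere and kinetochore group, Ndc80, Cenpf and Cenpe were lower within both numbers and Cenpa within number 1. Ndc80, which links kinetochores to microtubules, measured 9.13 FPKM in control 1, 9.40 in control 2, 3.33 in cKO 1 and 5.41 in cKO 2. The control libraries were nearly equal and both cKO libraries lay below them: the level was 2.74-fold lower within number 1 and 1.74-fold lower within number 2. Over both numbers the log2 difference of Ndc80 was -0.96 ± 0.26, the furthest from 0 among the 34 genes (limma adjusted p = 0.959). Cenpf, a large kinetochore and microtubule protein, measured 13.7 and 7.26 in control against 8.2 and 4.08 in cKO, and Cenpe, the kinetochore kinesin, 10.1 and 6.09 against 6.73 and 4.19. For these 2 genes the libraries numbered 2 were lower in both genotypes, so the groups overlapped although the log2 differences within the numbers were close, at -0.68 and -0.70 for Cenpf and -0.52 and -0.45 for Cenpe. Cenpa, the histone H3 variant of the centromere, measured 24.5 and 27.8 against 16.9 and 39.0, with differences of -0.51 and 0.47.

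Of the 8 kinesin motors besides Cenpe, 6 were lower within both numbers (37.6% of all genes tested). Kif11, or Eg5, which pushes the spindle poles apart, measured 24.6 and 18.7 FPKM in control libraries 1 and 2, against 13.9 and 13.02 in cKO 1 and 2, a log2 difference of -0.64 ± 0.22 without overlap. Kif15, which can share the work of Kif11, measured 10.97 and 7.92 against 6.49 and 5.58 (-0.56 ± 0.24). Kif23, the motor of the central spindle, measured 11.6 and 11.8 against 7.62 and 9.76 (-0.40 ± 0.22). Kif4, the chromokinesin, measured 11.1 in control 1 and 8.47 in cKO 1, and was nearly equal within number 2, at 9.92 in control and 9.82 in cKO. Kif20b, a motor of late mitosis, measured 7.03 and 3.43 against 4.34 and 1.94, with a difference of -0.59 within each number. Kif14, a midbody motor, had the lowest control 1 value of the set, with 3.31 and 4.34 against 2.70 and 3.98.

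The other 2 kinesins turned with the number. Kif2c, or MCAK, which takes microtubules apart at centromeres, measured 11.5 and 15.2 FPKM in control libraries 1 and 2, against 6.15 and 18.4 in cKO 1 and 2. Kif20a, which moves the passenger complex to the central spindle, measured 16.7 and 21.4 against 11.5 and 29.2. Their log2 differences were -0.81 and 0.26 for Kif2c and -0.51 and 0.43 for Kif20a. Both had cKO 1 as the lowest library and cKO 2 as the highest.

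Among proteins of spindle microtubules, 4 of 5 were lower within both numbers (37.6% of all genes tested). Nusap1, which bundles microtubules near chromosomes, measured 21.5 FPKM in control 1, 20.4 in control 2, 8.86 in cKO 1 and 14.4 in cKO 2, 2.43-fold lower within number 1 and 1.42-fold lower within number 2 (log2 difference -0.83 ± 0.27, limma adjusted p = 0.959). Prc1, which crosslinks the central spindle, measured 30.3 and 31.7 against 17.1 and 29.0, and Hmmr, a microtubule-binding protein of the spindle poles, 10.1 and 9.65 against 7.24 and 7.78. Aspm, a spindle pole protein, measured 11.4 and 7.31 against 6.47 and 5.59. In these 4 genes both cKO libraries lay below both control libraries. Tpx2, which activates Aurora A on the spindle, measured 15.5 and 19.0 against 13.1 and 22.2, with the ratio nearest to 1 within number 1 (0.843).

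The chromosome and cytokinesis genes were lower within both numbers. Top2a, the topoisomerase that untangles sister chromatids and the most abundant gene of the set in every library but cKO 2, measured 85.6 and 77.8 FPKM in control libraries 1 and 2, against 50.1 and 63.9 in cKO 1 and 2 (log2 difference -0.52 ± 0.23, without overlap). Mki67, the proliferation marker Ki-67 that coats mitotic chromosomes, measured 61.4 and 36.5 against 46.5 and 28.0. Its groups overlapped, since both genotypes were lower in number 2, but its differences within the numbers were close (-0.39 and -0.37). Anln, anillin of the contractile ring, measured 12.8 and 12.1 against 8.78 and 11.2, and Ect2, the exchange factor that activates RhoA for furrowing, 12.1 and 11.4 against 7.13 and 8.14. Ect2 had a log2 difference of -0.56 ± 0.20 and Anln of -0.31 ± 0.22, and neither overlapped.

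The libraries numbered 1 and 2 were also compared within a genotype. In cKO, 25 of 34 were higher in library 2 than in library 1 (56.5% of all genes tested), and 17 at least 1.5-fold so (13.2%). In control, 19 were higher in library 2 (57% of all genes tested), and 3, Aurka, Cdc20 and Plk1, at least 1.5-fold so (7.69%). In control these shares were near those of all genes. The median FPKM of the 34 genes was 14.6 in control 1, 18.1 in control 2, 8.82 in cKO 1 and 17.5 in cKO 2. With 1 library of each genotype at each number, a property of the library cKO 1 and an effect of genotype within number 1 cannot be told apart.

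Most genes that were lower within number 1 and higher within number 2 had short transcripts. Length was taken from the most abundant transcript of each gene in GENCODE M21 (GRCm38), and the length bounds were chosen after the values were seen. Of the 34 genes, 33 have a protein-coding main transcript; that of Kif14 is annotated as a target of nonsense-mediated decay and was left out. With a main transcript under 2000 nt there were 8 genes (Aurka, Aurkb, Birc5, Ccnb2, Cdc20, Cdk1, Cenpa and Ube2c), and 8 of 8 were lower in cKO within number 1 and higher within number 2, with median log2 differences of -0.62 and 0.47. With at least 4500 nt there were 10 (Anln, Aspm, Cenpe, Cenpf, Kif11, Kif15, Kif20b, Kif4, Mki67 and Top2a), and 10 of 10 were lower within both numbers, with medians of -0.63 and -0.41. Between these, 2000 to 3000 nt gave -0.78 and -0.14 (8 genes), and 3000 to 4500 nt -0.55 and -0.25 (7 genes). Other protein-coding genes tested had medians of 0.07 and 0.12 under 2000 nt (3600 genes) and -0.07 and -0.14 from 4500 nt (2609 genes). Of these, 42.8% and 36.4% were lower within numbers 1 and 2 under 2000 nt, and 61.9% and 67.9% from 4500 nt. Of other mitosis genes under 2000 nt, 24 of 29 were lower within number 1 and 10 of 29 within number 2. From 4500 nt, 22 of 24 and 15 of 24 were lower.

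**Figure D3:**
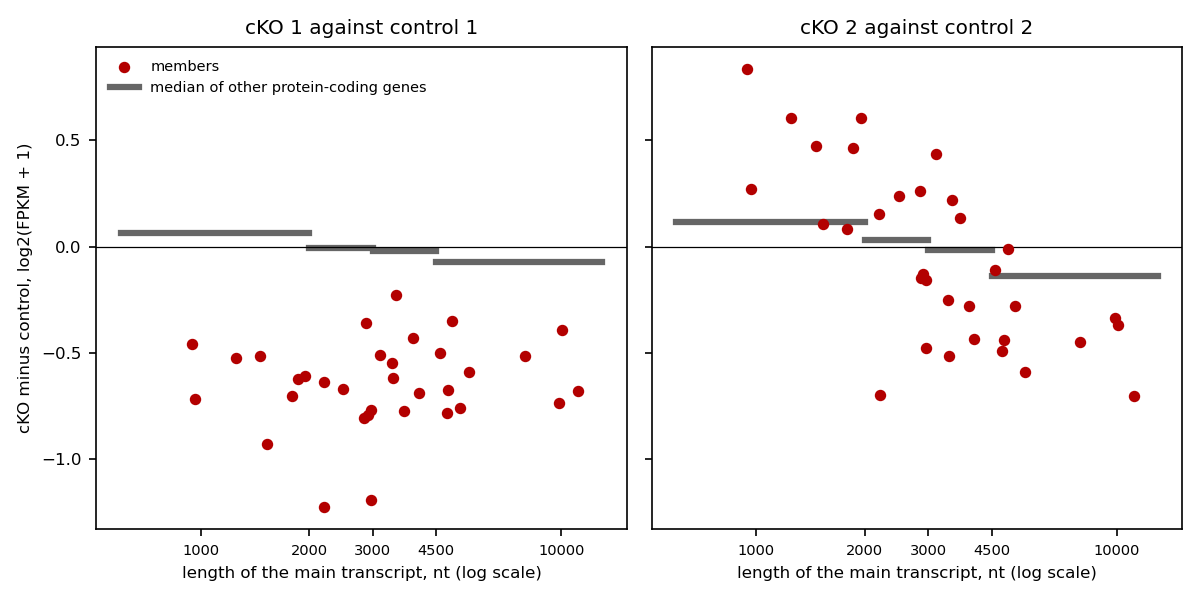
Log2 difference, cKO minus control on log2(FPKM + 1), against the length of the main transcript in nt (log scale), within number 1 (left) and number 2 (right), for 33 of the genes (points), with the median of other protein-coding genes in 4 length ranges (grey bars). Within number 1 the points lie below 0 at every length, and within number 2 the 8 genes under 2000 nt lie above 0 and the 10 genes from 4500 nt below it.

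As a description across genes, which share the same libraries and are not independent, the log2 difference within number 2 had a Pearson r of -0.718 and a Spearman rho of -0.71 with log2 length over the 33 genes, and r = -0.638 without the 2 genes farthest from the median length. Within number 1 r was 0.128. Over 11672 other protein-coding genes r was -0.277 within number 2 and -0.152 within number 1, and over 113 other mitosis genes -0.313 and -0.131. The difference between library numbers within a genotype followed length too, with r = -0.826 in control and -0.856 in cKO over the 33 genes. Over the other protein-coding genes r was -0.283 in control and -0.338 in cKO, and over the other mitosis genes -0.431 and -0.351. A split by exon number was similar. Within number 2, 10 of 11 genes with up to 10 exons were higher in cKO and 1 was lower, while 12 of 13 with at least 21 exons were lower. Of other protein-coding genes, 42.0% of 7020 with up to 10 exons and 69.8% of 1422 with at least 21 were lower. The main transcripts of the 34 genes had a median of 3272 nt (947 to 11130) and 18 exons (4 to 46), against 2818.5 nt and 9 exons for other protein-coding genes. The part of transcript length in the results was not tested.

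Single transcripts did not always move with their gene. Kif20a had 2 protein-coding transcripts of 19 exons that differ little in length: that of 3107 nt measured 6.34 and 11.3 FPKM in control libraries 1 and 2, against 0.50 and 5.90 in cKO 1 and 2, and that of 3146 nt 10.4 and 10.03 against 10.97 and 23.3. The first was lower in cKO and the second was higher within number 2, and the split of reads between such similar transcripts is uncertain. The 947-nt transcript of Birc5 measured 17.9 and 26.5 against 13.2 and 49.5, while its 3334-nt transcript measured 1.85 and 1.34 against 0.95 and 0.95. For Cdk1, the 1253-nt transcript measured 24.9 and 31.7 against 16.6 and 52.4, and the 4375-nt transcript 4.33 and 5.41 against 3.42 and 6.79. The higher level within number 2 was thus held by the short transcript in Birc5 and by both coding transcripts in Cdk1. In the median gene the main transcript held 92.2% of the summed FPKM (34.2% to 100%).

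Reads are uncertain for some genes, since the labels do not say whether the kit kept strand. Genes on the opposite strand overlap Ccna2 (Exosc9), Cdc20 (Elovl1), Kif20a (Cdc23), Kif4 (Pdzd11), Nusap1 (Oip5), Prc1 (Rccd1), Ube2c (Tnnc2) and Plk1 (Gm44985). Elovl1, a fatty acid elongase, was abundant, at 362 FPKM in control 1, 124 in control 2, 382 in cKO 1 and 154 in cKO 2, while Tnnc2 reached at most 0.42. Ccnb1, Ccnb2 and Kif4 have processed pseudogenes by name, to which reads could be assigned.

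Other mitosis genes, from lists by role, were also mostly lower in cKO within number 1. Of 120 listed, 115 were tested; 101 were lower in cKO within number 1 and 49 within number 2, with medians of -0.36 and 0.06, and 0 passed limma's adjusted test. Of all genes tested, 53.2% and 52.4% were lower within numbers 1 and 2. Lower within both numbers were 44 of the 115, a share near the 37.6% of all genes tested, and higher within both were 9 (31.8% of all genes tested). Knl1 and Pimreg were measured under their older symbols, Casc5 and Fam64a, which the list also holds, so each is listed under both symbols and tested once. Sgo1, Sgo2a and Sgo2b were not analysed here.

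Condensin, the complex that compacts chromosomes, was lower in 8 of 8 genes within number 1 and 6 of 8 within number 2, with medians of -0.47 and -0.20. Its subunit Ncapg measured 15.7 and 10.3 FPKM in control libraries 1 and 2, against 7.99 and 6.12 in cKO 1 and 2, and Smc4 42.5 and 23.5 against 29.1 and 13.3. Further kinetochore genes were lower in 27 of 30 and 14 of 30, with medians of -0.51 and 0.04; Ska2, which helps kinetochores hold microtubule ends, measured 7.71 and 7.66 against 3.82 and 4.20. The remaining passenger subunits behaved as Aurkb did: Cdca8, borealin, had differences of -0.85 and 0.15 within the numbers, and Incenp of -0.48 and 0.26. Cytokinesis genes were lower in 8 of 8 and 2 of 8 (medians -0.60 and 0.05), and Racgap1, the partner of Kif23, measured 25.7 and 31.0 against 14.4 and 32.2. Depdc1a, of the same list, was lower within both, at 7.47 and 6.02 against 4.01 and 3.16.

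Regulators of entry into mitosis were lower in 11 of 12 genes within number 1 and in 2 of 12 within number 2 (medians -0.42 and 0.32). Cks2, a small Cdk1 subunit, measured 32.1 and 38.4 FPKM in control, against 24.0 and 50.5 in cKO, and Cdc25c, a phosphatase that activates Cdk1, 5.60 and 7.13 against 2.74 and 6.65. Centrosome and spindle pole genes were lower in 18 of 19 and 8 of 19 (medians -0.34 and 0.04). Stmn1, stathmin, which destabilises microtubules, measured 174 and 248 against 128 and 302, and Cep55, an abscission protein, 7.26 and 5.75 against 3.51 and 4.73. The checkpoint and APC/C list was lower in 14 of 18 and 10 of 18 (medians -0.21 and -0.04); Anapc5, an APC/C subunit, measured 114 and 123 against 94.7 and 106, and Cdc26, a small subunit, was higher within both numbers, at 31.6 and 40.2 against 42.5 and 65.9. Separase and cohesion genes were lower in 5 of 6 and 3 of 6, with Cdca5, sororin, higher within both (5.15 and 7.70 against 6.70 and 17.1). Transcription factors of the cell cycle were lower in 10 of 14 and 5 of 14 (medians -0.16 and 0.22); E2f8, a repressor, measured 12.5 and 12.8 against 7.86 and 11.1.

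**Figure D4:**
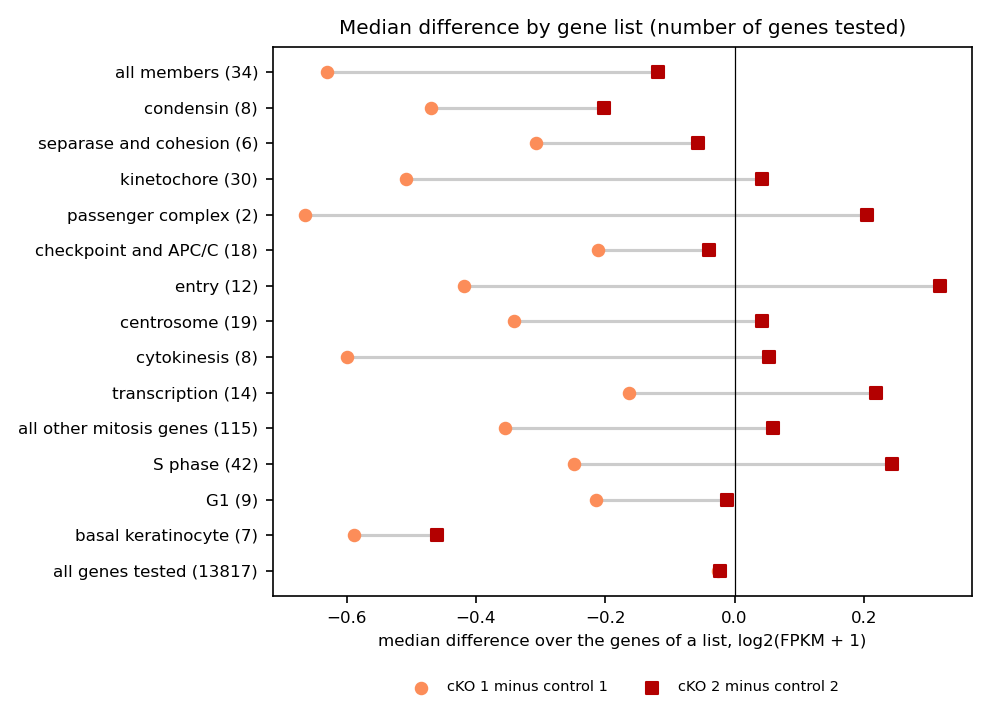
Median log2 difference, cKO minus control on log2(FPKM + 1), over the genes of each list, within number 1 (orange circles) and number 2 (red squares), with the number of genes tested in parentheses. Within number 1 every mitosis list has a median below 0, while within number 2 they run from -0.20 (condensin) to 0.32 (entry); the basal keratinocyte list lies below 0 within both.

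Genes of earlier phases of the cell cycle were taken from further lists. S phase genes were lower in 36 of 42 within number 1 and in 8 of 42 within number 2, with medians of -0.25 and 0.24. Pcna, the sliding clamp of DNA replication, measured 93.1 and 114 FPKM in control libraries 1 and 2, against 79.4 and 120 in cKO 1 and 2, and Fen1, the flap endonuclease, was higher within both numbers, at 14.4 and 20.2 against 21.2 and 45.5. G1 genes were lower in 7 of 9 and 5 of 9 (medians -0.21 and -0.01). Inhibitors of cyclin-dependent kinases were lower in 3 of 6 and 2 of 6 (medians -0.06 and 0.26). Of these, Cdkn1a, or p21, measured 75.7 and 86.2 in control, against 107 and 129 in cKO. Cdkn1b, or p27, measured 20.7 and 23.8 against 14.6 and 18.8. The groups did not overlap for either, with log2 differences of 0.54 ± 0.24 and -0.40 ± 0.22 (limma adjusted p = 0.959 for each). Of all genes tested, 16.2% had both cKO libraries above both control libraries and 16.6% had both below.

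Markers of the cells that a keratinocyte sample can hold moved with the mitosis genes in part. Basal keratinocyte markers were lower in cKO in 7 of 7 genes within both numbers (medians -0.59 and -0.46), and their summed FPKM was 3836 and 4950 in control libraries 1 and 2, against 2453 and 3828 in cKO 1 and 2. Suprabasal markers summed to 24810 and 12210 against 20910 and 12390. Leukocyte markers were lower in 9 of 10 genes within number 1 and 10 of 10 within number 2 (medians -0.78 and -0.68), with sums of 323 and 395 against 184 and 277. Hair follicle markers were lower in 7 of 10 and 2 of 10 (medians -0.21 and 0.23) and summed to 1248 and 1471 against 1059 and 1454. Most of each sum was Krt17, at 1087 and 1103 FPKM in control libraries 1 and 2, against 881 and 923 in cKO 1 and 2. Melanocyte markers summed to 527 and 448 against 407 and 418, and fibroblast markers to 119 and 116 against 88.0 and 94.7. Fibroblast markers were lower in 6 of 8 genes within number 1 and 4 of 8 within number 2 (medians -0.31 and 0.01), and Dcn, decorin, the most abundant of them, measured 55.7 and 68.2 against 33.96 and 40.3.

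Of the erythroid markers, 5 of 5 were higher in cKO within number 1 and 5 of 5 lower within number 2 (medians 1.84 and -0.99), with sums of 310 and 799 against 1164 and 381. The library cKO 1, lowest in mitosis genes, was the highest in these. Endothelial markers summed to at most 7.30 FPKM, with Cdh5 listed at 0 in both control libraries and Tie1 in cKO 1, and muscle markers to at most 2.20, with Myh3 at 0 in both cKO libraries. The part of any of these cell types in the results on mitosis genes was not tested.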

How the data were processed

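RNA of epidermal keratinocytes was sequenced after preparation with an NEBNext Ultra kit, per the labels' protocols, which name poly(A) selection and rRNA removal as alternatives. The submitters' processing notes list fastp, HISAT2, HTSeq and GRCm38; the step that made values per transcript is not given in the sources used here. In all, the authors deposited 1 table of 110295 transcripts whose header names no unit. FPKM was inferred for the deposited values: multiplied by transcript length, summed and divided by 1000 they came to between 1015550 and 1021998 per library. FPKM and RPKM cannot be told apart. Columns named WT were matched to the control labels by group and number. Symbols turned into dates in 162 rows were looked up by transcript ID. GENCODE M21 (GRCm38), which holds 98.13% of the transcripts, gave lengths and overlaps.

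Values were summed per symbol and tested on log2(FPKM + 1), which compresses the changes of low genes, by limma's trended moderated test (R 4.3.3, limma 3.58.1), two-sided, genotype only, and Benjamini-Hochberg adjustment at 0.05 over the 13817 genes that reached 1 FPKM in 2 or more libraries. Within a number there is 1 library per genotype and no test. The genes, lists and length bounds were chosen with earlier results of these data known. All 34 genes could be named; from each other list, the 2 highest in mean FPKM and the 1 with the largest difference of the same sign within both numbers; from marker lists, the 2 highest. Genes that overlap the 34 and markers listed at 0 were named after their values were seen. Depth was fitted so that low values of symbols with a single transcript, of 300 to 1000 nt, came nearest to whole multiples of 1 read. At the fitted depth 94.6% to 95.8% of these values were whole (tolerance 0.2 reads). Reads of every transcript were then recovered from its value, its length and that depth. The labels do not say that equal numbers pair libraries. Alternatives were another pseudocount, filters, scalings, transcript choices, limma-voom on recovered reads, the replicate block and leaving out each library. The limma step was also run on simulated data with independent noise in each library. Those data held no effect of library number, so the run does not cover same-numbered libraries that vary together. Python 3.11.15, pandas 2.3.3, numpy 2.4.6, scipy 1.17.1 and matplotlib 3.10.9 were used.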

Additional observations from a re-analysis of the deposited data

How the results depend on the processing

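With the replicate number as a block, 900 genes passed limma's adjusted test against 0 without it, and 4 of the 34 mitosis genes did, all lower in cKO: Ndc80 (adjusted p = 0.0199), Kif11 (0.0309), Cenpf (0.0310) and Nusap1 (0.0312). Deviations from the group means of same-numbered libraries correlated at r = 0.722 across 13817 genes and 0.951 over the 34 genes, but with 2 pairs and labels that state no pairing the libraries share only a number. The block leaves 1 residual degree of freedom. Leaving out a library, which leaves 1 in a group that is assumed to vary like the other, gave 9 to 71 calls over all genes and 0 among the 34 for each library. It moved the number of the 34 below 0 over both numbers to between 19 (without cKO replicate 1) and 34, and their median to between -0.66 (without cKO replicate 2) and -0.09 (without cKO replicate 1). It turned the direction of 15 genes, whose log2 differences ran from -0.72 to 0.80 for Cdk1, -0.85 to 0.42 for Ccnb1, -1.06 to 0.24 for Ccnb2, -0.97 to 0.81 for Aurka, -0.78 to 0.77 for Aurkb, -0.70 to 1.07 for Birc5, -1.12 to 0.63 for Plk1, -0.87 to 0.23 for Bub1b, -1.03 to 0.40 for Cdc20, -0.999 to 0.55 for Ube2c, -0.60 to 0.56 for Cenpa, -0.375 to 0.054 for Kif14, -0.68 to 0.60 for Kif20a, -0.99 to 0.45 for Kif2c and -0.37 to 0.36 for Tpx2. Other turns were Cdk1 with equal column sums (-0.018), Aurkb with limma-voom (0.003), Kif14 with protein-coding transcripts only (0.038), and Kif20a (0.606) and Tpx2 (0.04) with the main transcript only; the cause was not tested. Equal column sums left 1 gene at least 1.5-fold higher within number 2, against 3, and moved the median of all genes by -0.05. A split chosen after the values were seen, the 16 genes with a main transcript under 3000 nt, gave a median of 0.195 within number 2 against -0.118 for all 34. The other 127 values that answer a comparison were counts equal to or within 1.5-fold of the main count, or medians of the main direction. Such counts could still move, as from 32 genes below 0 over both numbers to 24 without control replicate 2. The other 406 values for single genes kept their direction and their side of the threshold.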
